A study of Homo sapiens with 17 samples.

Results

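The Hippo-YAP pathway was followed through 10 of its genes, chosen by name from the 57820 genes listed in every table: the coactivators YAP1 and WWTR1, their DNA-binding partner TEAD1, the regulators LATS2, AMOTL2 and AJUBA, and the target genes CTGF, CYR61, ANKRD1 and AXL. All 10 were found. They were chosen because AJUBA was among the strongest falls after ARV-771, so the values of all 10 in that treatment are given as a description, without a test. By log2 fold change AJUBA ranked 747 from the bottom of 13500 genes tested there. The 17 RNA-seq libraries came from a study of e1, a noncoding enhancer of the transcription factor gene SOX2, in human squamous cancer cell lines.

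KYSE140 is an esophageal squamous cell carcinoma line. Its cells carried a CRISPR interference system (CRISPRi), in which an inactive Cas9 silences the targeted site, with negative-control guide RNAs (sg-NC 1 and 2) or e1 guides (1 and 2), which is called e1 repression here. Other KYSE140 cells carried active Cas9 with SOX2 guides 2, 3 and 4 (SOX2 knockout), or with the control guides to AAVS1 and to Chr2.2. A further set of KYSE140 cultures, A and B in each arm, received 0.5 µM ARV-771, a small-molecule protein degrader, or DMSO, each for 6 h. SKMES1 is a lung squamous cell carcinoma line. Its cells carried dCas9-VP64 and RNA-recruited activators (CRISPRa) with 2 negative-control guides or with e1 guides 1 and 3 (e1 activation). CRISPR cells of both lines were drug-selected infected pools of 1 line each, not clones, and a knockout pool can keep cells with an intact gene. Each library of a CRISPR group had its own guide, so p-values measure the spread between guides or cultures of that group only.

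The Hippo pathway is a kinase cascade that restrains growth. Its last kinases, LATS1 and LATS2, phosphorylate YAP (gene YAP1) and its relative TAZ (gene WWTR1), which holds them in the cytoplasm. Unphosphorylated YAP and TAZ enter the nucleus, bind TEAD factors and raise target genes, some of which, such as AMOTL2 and LATS2, feed back on the pathway. In squamous epithelium YAP is associated with basal, proliferating cells. RNA levels do not show phosphorylation or the location of YAP.

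TEAD factors recognise the letters GGAATG, and AP-1 factors, which often sit beside them, TGANTCA. Promoters, taken as the 250 bases before the RefSeq transcription start (GRCh38.p14 table), were found for 8 of the 10 genes, and each had a unique exact match in GRCh37, the build of the deposited tables. These letters, on either strand and with no overlap between matches of the motifs, were present for TEAD in YAP1, CTGF and ANKRD1 and for AP-1 in ANKRD1. Among all 27303 promoters of the table, 11.9% held GGAATG and 6.6% held TGANTCA. A SOX-type motif, CATTGT, held by 9.45% of all promoters, was in none of the 8 windows. CTGF and ANKRD1 are shown because they carried several TEAD matches, and AXL and AJUBA because AXL moved most of the 10 under e1 repression and SOX2 knockout and AJUBA led the choice of genes. Each is written 5′ to 3′ on the strand of its gene, with TEAD and AP-1 matches in capitals. CTGF lies at chr6:132272513-132272762 (minus strand), ANKRD1 at chr10:92680845-92681094 (minus), AXL at chr19:41724878-41725127 (plus) and AJUBA at chr14:23451761-23452010 (minus).
CTGF: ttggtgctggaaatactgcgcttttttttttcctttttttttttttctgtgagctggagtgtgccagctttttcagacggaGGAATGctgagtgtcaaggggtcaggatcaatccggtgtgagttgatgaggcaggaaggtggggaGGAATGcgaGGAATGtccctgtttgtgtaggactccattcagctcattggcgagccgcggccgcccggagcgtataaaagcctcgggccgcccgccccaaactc
ANKRD1: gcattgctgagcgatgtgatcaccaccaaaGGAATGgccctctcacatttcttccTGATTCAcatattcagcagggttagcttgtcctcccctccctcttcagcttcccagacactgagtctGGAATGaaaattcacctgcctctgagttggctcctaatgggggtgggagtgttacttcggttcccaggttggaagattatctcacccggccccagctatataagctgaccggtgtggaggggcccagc
AXL: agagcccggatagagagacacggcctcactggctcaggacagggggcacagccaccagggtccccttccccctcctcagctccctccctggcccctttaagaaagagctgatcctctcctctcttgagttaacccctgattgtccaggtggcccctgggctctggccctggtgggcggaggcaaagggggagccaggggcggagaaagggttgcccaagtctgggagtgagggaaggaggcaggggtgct
AJUBA: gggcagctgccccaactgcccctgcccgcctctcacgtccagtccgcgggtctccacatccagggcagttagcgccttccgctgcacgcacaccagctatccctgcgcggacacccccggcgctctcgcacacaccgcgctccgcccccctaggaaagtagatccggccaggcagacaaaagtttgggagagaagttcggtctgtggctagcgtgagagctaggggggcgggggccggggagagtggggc
CTGF had 3 TEAD matches, starting 169, 104 and 95 bases before the transcription start, the last pair set close together. ANKRD1 had 2, starting 220 and 128 bases before it, with the AP-1 match between them at 195. YAP1 had 1, starting 162 bases before its own. A match of letters is not a binding site, and its absence from these windows says nothing of more distant elements. The WWTR1 window (chr3:149421061-149421310, minus strand) lay inside the gene span given below, and that of AMOTL2 partly so. For WWTR1 the absence of matches thus concerns an internal start.

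**Figure D1:**
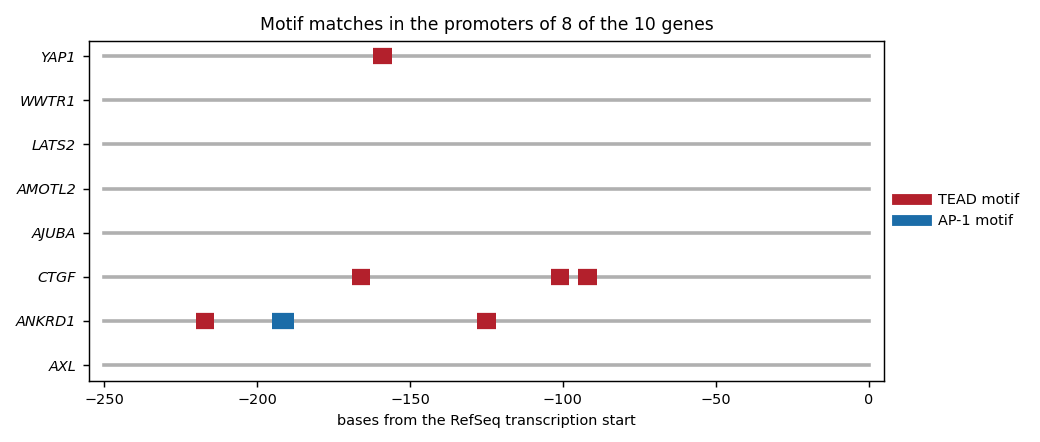
Positions of TEAD (GGAATG) and AP-1 (TGANTCA) matches in the 250 bases before the transcription start of 8 of the 10 genes, with the distance from the start in bases on the horizontal axis. CTGF holds 3 TEAD matches, ANKRD1 holds 2 and an AP-1 match, YAP1 holds 1, and the other 5 windows hold no match.

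Total expected counts, the reads per library as estimated by RSEM, ranged from 7260730 to 15781463. The RNA of SOX2 marked every perturbation: the libraries of its groups did not overlap in any comparison. RNA levels do not measure the protein left in the knockout pools. SOX2 stood at 365 to 428 TPM in the CRISPR controls of KYSE140. It was at 120 to 128 TPM under e1 repression and 103 to 221 TPM in the knockout. It stood at 9.8 to 10.5 TPM after ARV-771 against 223 to 236 TPM in DMSO, and at 224 to 316 TPM under e1 activation against 1.53 to 1.68 TPM in SKMES1 controls. TPM is a share of all transcripts, corrected for gene length, and is the scale on which genes can be compared. KYSE140 carried all 7 squamous markers examined (TP63, KRT5, KRT14, KRT6A, DSG3, CDH1 and SFN), with summed levels from 5639 to 30178 TPM. SKMES1 had only 325 to 942 TPM of them, mostly SFN, with KRT5 at 0.05 to 1.26 TPM and DSG3 at 0 to 0.1 TPM. TP63 stood at 1.87 to 3.79 TPM there, and KRT14 at 118 TPM in control 2 and at most 0.31 TPM in the other SKMES1 libraries. Leukocyte markers summed to at most 6.39 TPM, in SKMES1 and mostly CD14, and the endothelial marker CDH5 was at or near 0 in all libraries.

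In untreated or control-guide KYSE140 cells the most abundant of the 10 messages were AJUBA, YAP1 and CYR61, and the least abundant AXL and ANKRD1. AJUBA, a LIM-domain scaffold that binds and holds back LATS kinases, stood at 87.4 to 121 TPM over the 6 control libraries. YAP1 stood at 53.7 to 112 TPM and CYR61, a secreted matrix protein also named CCN1, at 60.4 to 99.2 TPM. AXL, a receptor tyrosine kinase, was between 1 and 2.16 TPM and ANKRD1, a muscle and stress-response ankyrin protein, between 0.13 and 2.31 TPM. In SKMES1 controls AXL had the highest level, at 238 and 313 TPM, and CYR61 the next, at 178 and 127 TPM. ANKRD1 stood at 125 and 44.8 TPM, the third in control 1 but below WWTR1, AMOTL2 and AJUBA in control 2. The lowest of the 10 in SKMES1 controls was LATS2, the terminal kinase, at 4.74 and 4.92 TPM.

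**Figure D2:**
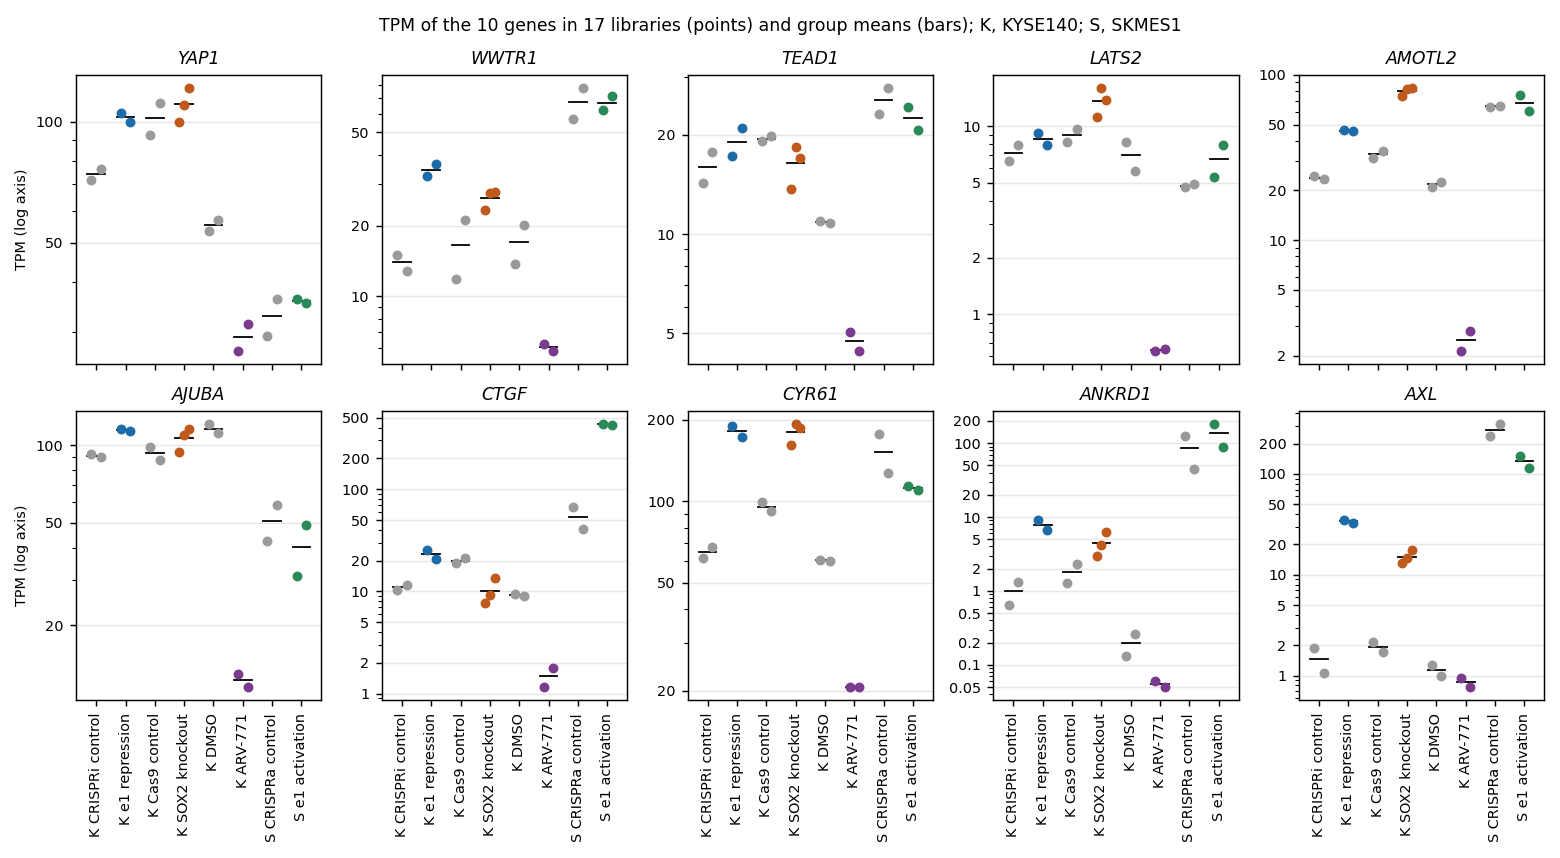
TPM (log axis, a separate scale for each gene) of the 10 genes in each of 17 libraries, as points, with bars at group means; K is KYSE140 and S is SKMES1. AXL lies at 1 to 2.16 TPM in KYSE140 controls, 32.7 and 35.2 TPM under e1 repression and 238 and 313 TPM in SKMES1 controls, while AJUBA is lowest after ARV-771, at 11.5 and 12.9 TPM.

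The e1 repression libraries address which genes respond when the enhancer is silenced. Of the 10 genes, 6 rose: AXL, ANKRD1, CYR61, WWTR1, CTGF and AMOTL2. Rise or fall was called where the edgeR quasi-likelihood test gave an adjusted p (Benjamini-Hochberg) below 0.05 and the change exceeded 1.5-fold. Among the 13792 genes tested, 9.3% were called higher and 20% in either direction. Libraries with e1 guides lay above both controls in TPM for 9 of the 10 genes, TEAD1 being the exception. Over all genes tested 32.3% lay above, 33.2% below and 65.5% in either direction.

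Of the coactivators, WWTR1 (chr3:149235022-149454501, minus strand) rose under e1 repression. Its libraries stood at 14.96 and 12.85 TPM with control guides and at 32.4 and 36.8 TPM with e1 guides, so both e1 libraries were more than 30 TPM. The log2 fold change on counts was 1.25 (SE 0.09, edgeR quasi-likelihood adjusted p 1.3e-08). YAP1 (chr11:101981178-102104155, plus strand) was at 71.5 and 76.4 TPM in the controls and 105 and 100.2 TPM with e1 guides. Its groups did not overlap, but the log2 fold change of 0.31 (SE 0.06) was under the minimum fold, with an edgeR quasi-likelihood adjusted p of 2.8e-04. TEAD1 (chr11:12695968-12966284, plus strand), at 14.3 and 17.7 TPM against 17.2 and 21.0 TPM, overlapped between groups and was not called (log2 fold change 0.34, SE 0.08).

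Among the regulators, AMOTL2 (chr3:134074189-134094321, minus strand), a scaffold of the angiomotin family that binds YAP, stood at 24.4 and 23.3 TPM in control libraries, and at 46.1 and 45.7 TPM with e1 guides. Replicates of each group nearly coincided, and the log2 fold change was 0.97 (SE 0.07, edgeR quasi-likelihood adjusted p 1.1e-08). AJUBA (chr14:23440386-23451760, minus strand) was at 92.6 and 89.7 TPM against 115 and 113 TPM, a log2 fold change of 0.35 (SE 0.05) that did not reach the minimum fold. LATS2 (chr13:21547175-21635725, minus strand) was at 6.53 and 7.91 TPM against 9.24 and 7.92 TPM, so its groups all but touched. The log2 fold change of LATS2 was 0.26 (SE 0.12), with an edgeR quasi-likelihood adjusted p of 0.0861.

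All 4 genes grouped here as targets rose under e1 repression, where 9.3% of all genes were called higher. Of AMOTL2 and LATS2, grouped as regulators but also YAP targets, AMOTL2 rose and LATS2 was not called. AXL (chr19:41725128-41767671, plus strand) moved most, from 1.89 and 1.06 TPM to 35.2 and 32.7 TPM. That is a log2 fold change of 4.63 (SE 0.13, edgeR quasi-likelihood adjusted p 2.2e-13), which placed AXL at rank 75 from the top of 13792 genes. CYR61 (chr1:86046444-86050272, plus strand) went from 61.9 and 68.0 TPM to 190 and 173 TPM, and its log2 fold change was 1.499 (SE 0.07, edgeR quasi-likelihood adjusted p 5.4e-11). CYR61 was thereby the most abundant of the 10 messages in these cells. ANKRD1 (chr10:92671853-92680844, minus strand) rested on few reads, with control libraries at 9 and 19 and e1 libraries at 103 and 82 expected counts. The log2 fold change of ANKRD1 was 2.98 (SE 0.33, edgeR quasi-likelihood adjusted p 2.2e-06). CTGF (chr6:132269316-132272512, minus strand), a secreted matrix protein also named CCN2, was at 10.3 and 11.6 TPM in the controls and 25.5 and 20.8 TPM with e1 guides. This was a log2 fold change of 1.09 (SE 0.13, edgeR quasi-likelihood adjusted p 4.0e-06).

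Knockout of SOX2 asked which genes depend on the transcription factor itself. Of the 10 genes, 6 rose (AXL, ANKRD1, AMOTL2, CYR61, WWTR1 and LATS2) and CTGF fell. Over all 13978 genes tested, 16.3% were called higher, 13.5% lower and 29.7% in either direction by the same rule. The median log2 fold change of all genes was -0.01 with the TMM scaling used here and -0.21 with library size only, and values below are on the TMM scale. Risen genes were 54.7% of calls with TMM and 36.2% with library size only.

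WWTR1 stood at 11.8 TPM with the AAVS1 guide and 21.2 TPM with the Chr2.2 guide, whereas the knockout libraries held 23.4, 27.5 and 27.8 TPM. On counts its log2 fold change was 0.88 (SE 0.12, edgeR quasi-likelihood adjusted p 7.3e-05). The 2 controls lay far apart in TPM. Their expected counts were 230 and 240 in libraries of 9251697 and 7260730 total expected counts, so relative to depth the counts differed too. YAP1 was at 92.8 and 112 TPM in the controls and 99.7, 110.4 and 122 TPM in the knockout, so the groups overlapped. It was not called (log2 fold change 0.24, SE 0.07). TEAD1 was at 19.1 and 19.8 TPM against 13.8, 18.4 and 17.1 TPM. Lower TPM in each knockout library did not go with a change in counts, where the log2 fold change was -0.05 (SE 0.09).

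LATS2 rose in the knockout, from 8.24 and 9.64 TPM to 11.18, 16.01 and 13.79 TPM, with a log2 fold change of 0.75 (SE 0.11, edgeR quasi-likelihood adjusted p 9.8e-05). This call was lost with library size only and with limma on log2(TPM + 1), both at 0.55, under the minimum fold. AMOTL2 stood at 31.4 and 34.8 TPM in control libraries, and at 74.3, 82.7 and 83.7 TPM with SOX2 guides. Its log2 fold change was 1.45 (SE 0.08, edgeR quasi-likelihood adjusted p 3.4e-08), and the mean of the knockout was the highest of AMOTL2 in any group. AJUBA, at 98.5 and 87.4 TPM against 94.2, 109.6 and 115 TPM, overlapped between groups and was not called (log2 fold change 0.31, SE 0.07).

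AXL rose from 2.16 and 1.71 TPM to 13.0, 14.6 and 17.5 TPM, a log2 fold change of 3.16 (SE 0.14, edgeR quasi-likelihood adjusted p 6.0e-09). CYR61 rose from 99.2 and 91.8 TPM to 162, 193 and 187 TPM, a log2 fold change of 1.11 (SE 0.08, edgeR quasi-likelihood adjusted p 4.9e-07). For both genes every knockout library lay well above its controls. For ANKRD1 the controls held 15 and 21 counts, and the knockout 52, 39 and 78 (log2 fold change 1.54, SE 0.38, edgeR quasi-likelihood adjusted p 0.00473). Without the AAVS1 library the ANKRD1 value was 1.15 and its edgeR quasi-likelihood adjusted p 0.0839, so the call rested on that control. It was also lost with limma on log2(TPM + 1) and in the fit of all 17 libraries. CTGF went the other way, from 19.0 and 21.0 TPM to 7.77, 9.32 and 13.4 TPM. Its log2 fold change was -0.79 (SE 0.17, edgeR quasi-likelihood adjusted p 0.00222), and no knockout library reached the lower control. Knockout libraries lay above both controls in TPM for 6 of the 10 genes and below for 2, where 22.1% of all genes lay above, 41.4% below and 63.6% either way.

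**Figure D3:**
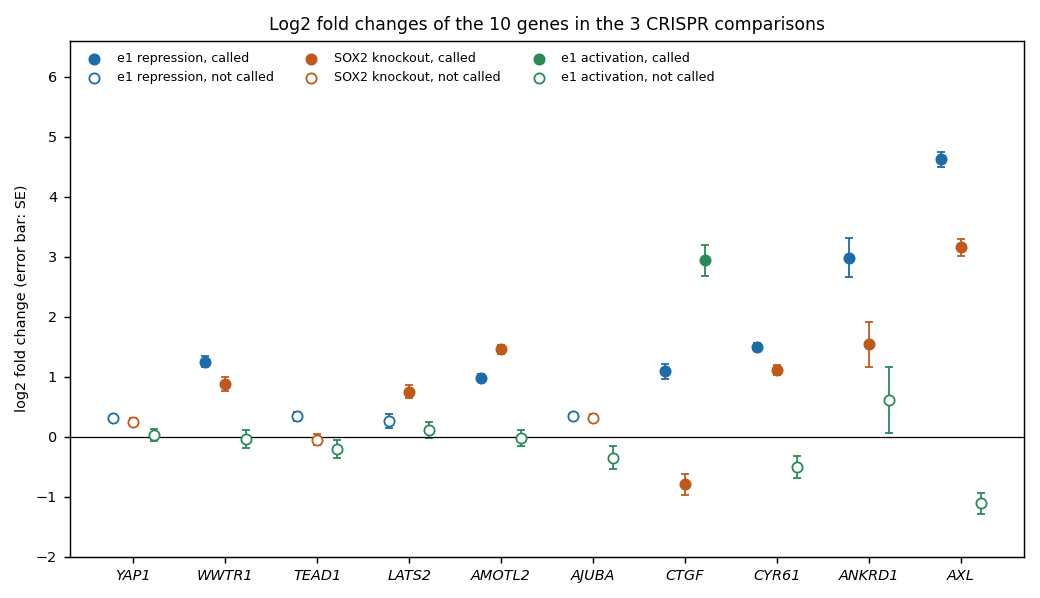
Log2 fold change (vertical axis, error bars SE) of each of the 10 genes in e1 repression, SOX2 knockout and e1 activation, filled where called and open where not. CTGF is at 1.09 in e1 repression, -0.79 in the knockout and 2.94 in e1 activation, and AXL at 4.63, 3.16 and -1.11.

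The effects of the 2 KYSE140 perturbations were compared in an interaction contrast over their 9 libraries. It called 2 of the 10 genes, CTGF and AXL, against 16.6% of all 14455 genes tested (8.21% higher and 8.37% lower in e1 repression). Higher genes were 49.5% of calls with TMM and 67.6% with library size only. The effect on CTGF was higher in e1 repression by 1.91 on the log2 scale (SE 0.24, edgeR quasi-likelihood adjusted p 5.7e-05). The control levels of CTGF also differed, at 10.3 and 11.6 TPM with CRISPRi control guides and 19.0 and 21.0 TPM with Cas9 control guides, and the knockout libraries, at 7.77 to 13.4 TPM, spanned the CRISPRi controls. The effect on AXL was higher in e1 repression by 1.49 (SE 0.23, edgeR quasi-likelihood adjusted p 2.8e-04), and here the controls of both systems were near 2 TPM or lower. ANKRD1 differed by 1.46, about as much as AXL, but with an SE of 0.58 was not called (edgeR quasi-likelihood adjusted p 0.0751). AMOTL2 went the other way by -0.46 (SE 0.10), under the minimum fold. In 7 alternatives 3 of the 10 genes were called, the added gene being ANKRD1 (1.599 with library size only), LATS2 or WWTR1. The perturbation and the CRISPR system cannot be told apart in this contrast.

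Markers of cell state also differed from the controls in these cells, though not all in the same direction. The 5 mesenchymal markers (VIM, ZEB1, CDH2, FN1 and SPARC) summed to 193 and 204 TPM in the CRISPRi controls and 1130 to 1199 TPM under e1 repression, and to 315 and 349 TPM in the Cas9 controls and 1171 to 1300 TPM in the knockout. The higher sums came from VIM, the intermediate filament vimentin, at 1082 to 1280 TPM in the perturbed cells and 114 to 267 TPM in their controls. CDH2 (N-cadherin) went the other way, at 41.6 and 45.5 TPM under e1 repression and 15.1 to 22.6 TPM in the knockout, against 77.6 to 80.9 TPM in the controls. ZEB1, FN1 and SPARC did not exceed 1.92 TPM in any KYSE140 library. The 7 squamous markers summed to more as well, at 10644 and 10782 TPM under e1 repression and 25286 to 30178 TPM in the knockout, against 6413 to 7579 TPM in the CRISPR controls. TP63, the master regulator of basal squamous cells, was lower, at 94.6 and 98.0 TPM and at 56.9 to 78.5 TPM, against 153 to 182 TPM in the controls. The part of these markers in the values of the 10 genes was not tested.

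**Figure D4:**
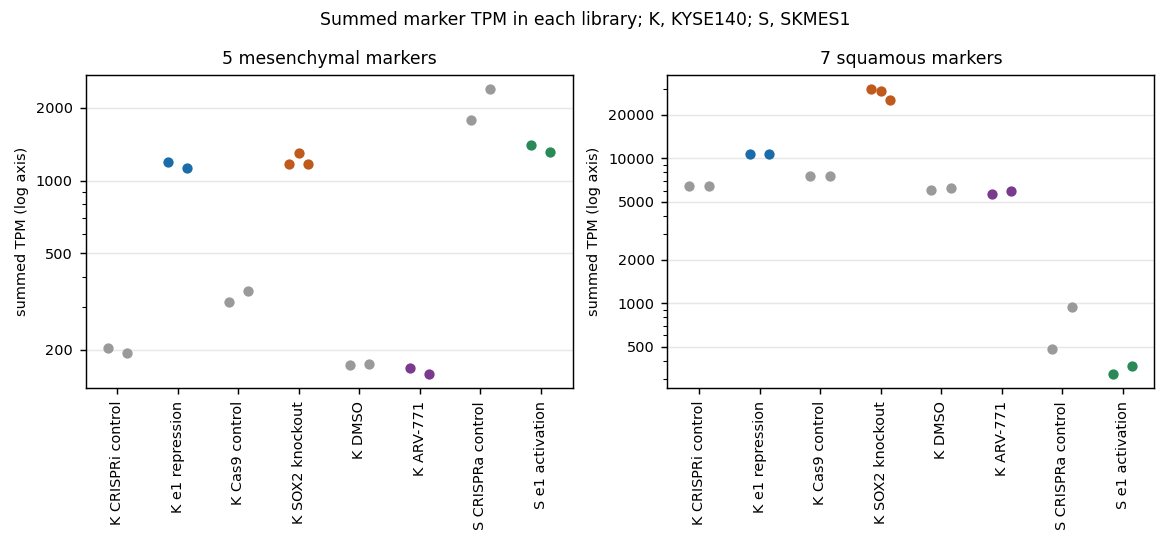
Summed TPM (log axes) of 5 mesenchymal markers (left) and 7 squamous markers (right) in each library, grouped as in the plot of the 10 genes. Mesenchymal sums are 1130 to 1300 TPM under e1 repression and SOX2 knockout and 158 to 349 TPM in the other KYSE140 libraries, and squamous sums in SKMES1 do not exceed 942 TPM.

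The wider pathway was described with 23 further Hippo genes and 16 further YAP/TAZ target genes. Under e1 repression, 9 of 14 targets that passed the filter on low counts rose, where 9.3% of all genes were called higher, with a median log2 fold change of 0.73 over the list against 0.00 over all genes. F3, the coagulation tissue factor, stood at 6.79 and 8.25 TPM in control libraries, and at 63.4 and 44.8 TPM with e1 guides (log2 fold change 2.97). CRIM1, a membrane protein that binds growth factors, rose from 9.56 and 10.2 TPM to 39.8 and 37.8 TPM (1.97). CCDC80, a secreted matrix protein, went from 0.45 and 0.83 TPM to 4.88 and 1.71 TPM (1.92), a call lost with limma on TPM. Of 22 pathway genes tested, 2 rose and 1 fell, a share near the 9.3% and 10.7% of all genes, with a median of 0.03. The difference between the lists was not tested. The riser named by the rule was FRMD6, an upstream FERM-domain protein, at 49.2 and 47.2 TPM against 119 and 103 TPM (log2 fold change 1.13). AMOT, the angiomotin relative of AMOTL2, fell from 6.66 and 4.12 TPM to 0.65 and 1.54 TPM (-3.00), while AMOTL2 rose.

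In the knockout, 6 of 14 targets rose, where 16.3% of all genes did, and their median was 0.31 against -0.01 over all genes. CCDC80 rose from 1.08 and 1.32 TPM to 8.50, 9.91 and 12.4 TPM (log2 fold change 3.81). F3 rose from 12.9 and 12.6 TPM to 41.4, 46.2 and 47.7 TPM (1.97), and GADD45A, a DNA-damage response gene, from 63.0 and 77.0 TPM to 228, 240 and 250 TPM (1.957). The groups of all 3 genes were far apart. Of 22 pathway genes, 6 rose and 2 fell, where 29.7% of all genes were called either way, with a median of -0.05. VGLL1, a cofactor of TEAD, was near absent from the controls at 5 and 9 counts, and reached 138, 50 and 90 in the knockout (log2 fold change 3.55). FRMD6 (0.99) and TAOK3 (0.89), an upstream kinase, also rose. AMOT fell again, from 2.81 and 5.22 TPM to 1.06, 0.40 and 1.08 TPM (log2 fold change -2.41), and TEAD4 fell from 50.3 and 43.8 TPM to 22.81, 25.98 and 28.81 TPM (-0.64). TEAD4 dropped under the minimum fold without the AAVS1 library (-0.57) or without SOX2 guide 2 (-0.58).

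**Figure D5:**
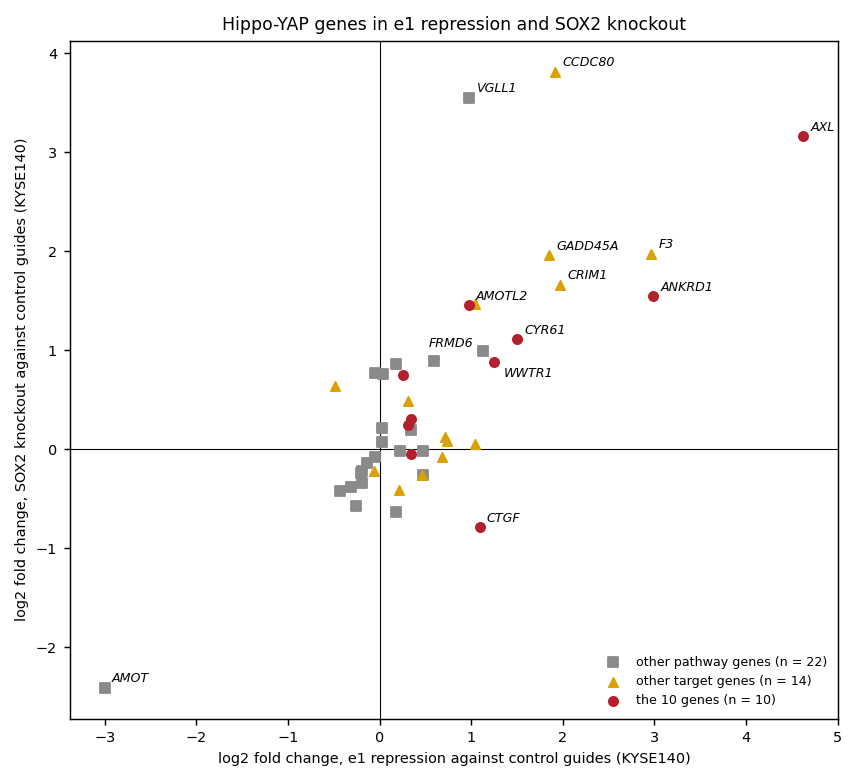
Log2 fold change under SOX2 knockout (vertical axis) against that under e1 repression (horizontal axis), both in KYSE140, for the 10 genes, 22 other pathway genes and 14 other target genes. AXL lies at 4.63 and 3.16, CTGF at 1.09 and -0.79 as the only one of the 10 that was called in opposite directions, and AMOT at -3.00 and -2.41.

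Activation of e1 in SKMES1 asked whether the enhancer is enough to raise SOX2 and linked genes. Of the 10 genes, only CTGF was called, in a comparison that called 0.188% of 14859 genes, 0.168% as higher and 0.0202% as lower. CTGF stood at 66.8 and 41.1 TPM in control libraries, and at 434 and 427 TPM with e1 guides 1 and 3, the highest level of any of the 10 genes in any library. The rise was 7.68-fold (log2 fold change 2.94, SE 0.25), with an edgeR quasi-likelihood adjusted p of 0.0349. The call was lost without either e1 library, at 2.96 without guide 3 (edgeR quasi-likelihood adjusted p 0.18) and 2.94 without guide 1 (adjusted p 0.0802), while the value hardly moved. Leaving out a control kept it, at 3.36 and 2.62.

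AXL, the most abundant of the 10 in SKMES1 controls, stood at 238 and 313 TPM there, and at 152 and 116 TPM with e1 guides. Its groups did not overlap, but the log2 fold change of -1.11 (SE 0.18) had an edgeR quasi-likelihood adjusted p of 0.12. DESeq2, the edgeR exact test and the fit of all 17 libraries called AXL lower. The sum of the mesenchymal markers was lower in the same libraries, at 1784 and 2398 TPM in controls and 1310 to 1409 TPM with e1 guides. It was mostly VIM, at 1639 and 2268 TPM against 1284 and 1178 TPM. FN1 was also lower, at 65.9 to 67.6 TPM against 38.4 to 40.7 TPM. CDH2 went the other way, at 49.5 to 70.5 TPM against 73.1 to 77.9 TPM. ZEB1 overlapped between groups, and SPARC did not exceed 0.25 TPM. The part of these markers in the AXL value was not tested. CYR61 was at 178 and 127 TPM against 114 and 110.2 TPM (log2 fold change -0.50, SE 0.18, edgeR quasi-likelihood adjusted p 0.315). Without control 2 CYR61 was called, at -0.74. ANKRD1 stood at 125 and 44.8 TPM against 181 and 89.3 TPM, with wide spread in both groups. In the controls the library with 125 TPM of ANKRD1 was also the higher for CTGF and CYR61. YAP1 was at 29.3 and 36.3 TPM against 36.4 and 35.4 TPM, WWTR1 at 57.2 and 77.6 TPM against 62.3 and 71.3 TPM, and AMOTL2 at 63.8 and 65.3 TPM against 75.4 and 60.3 TPM. For these 3 genes the groups overlapped. AJUBA (42.5 and 58.9 TPM against 31.1 and 49.2 TPM) and TEAD1 (23.1 and 27.8 TPM against 24.4 and 20.7 TPM) overlapped as well. LATS2 was at 4.74 and 4.92 TPM against 5.39 and 7.93 TPM, with a log2 fold change on counts of 0.11 (SE 0.14). In TPM 2 of the 10 genes lay above both controls in both e1 libraries and 2 below, where 27.2% of all genes lay above, 17.3% below and 44.5% either way. Of the wider lists, 0 of 22 pathway genes and 0 of 16 targets were called by edgeR. At an unadjusted p under 0.05 there were 2 pathway genes and 3 targets, where 14.2% of all genes passed. Over both lists DESeq2 and the exact test called 3 genes each, where they called 400 and 523 of all 14859 genes. The spread between guide libraries was largest in this comparison, with a biological coefficient of variation of 0.166 against 0.0474 in e1 repression and 0.0821 in the knockout.

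ARV-771 was compared with DMSO in KYSE140, and this is the contrast that chose the 10 genes. On the TPM scale all 10 were lower in both treated libraries than in both DMSO libraries. So were 73.2% of all 13500 genes tested, with 10.1% higher and 83.3% in either direction, and nothing is read from the count. By the call rule, 31.7% of all genes were lower, 21.2% higher and 52.9% either. Scaling mattered here: the median log2 fold change of all genes was -0.04 with TMM, -0.50 with library size only, -0.60 with limma on log2(TPM + 1) and -1.12 when scaled to mitochondrially encoded genes. Called genes that rose made up 40% of calls with TMM and 5.9% with library size only. These libraries give relative levels only, so whether the total RNA per cell changed cannot be read from them.

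AJUBA fell from 121 and 111 TPM in DMSO to 12.9 and 11.5 TPM after ARV-771. On counts its log2 fold change was -2.49 (SE 0.06), rank 747 from the bottom of 13500, and over the alternatives it lay between -3.56 and -2.41. The other regulators moved by similar amounts. AMOTL2 was at 21.0 and 22.6 TPM in DMSO and 2.14 and 2.82 TPM with ARV-771 (log2 fold change -2.69, SE 0.11), and LATS2 at 8.26 and 5.79 TPM against 0.64 and 0.65 TPM (-2.61, SE 0.18).

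Of the targets, CTGF was at 9.39 and 9.04 TPM in DMSO and 1.16 and 1.80 TPM with ARV-771 (log2 fold change -1.89, SE 0.21). CYR61, at 60.6 and 60.4 TPM against 20.6 and 20.7 TPM, had a log2 fold change of -0.81 (SE 0.07), less than that of CTGF. AXL, at 1.28 and 1.00 TPM against 0.95 and 0.77 TPM, was low throughout. Its log2 fold change was 0.18 (SE 0.31) with TMM and -0.28 with library size only, so its direction depended on the scaling. ANKRD1 had 2 and 4 counts in DMSO and 1 and 1 with ARV-771, around the 3 counts below which no level was read here, and it did not pass the filter. The coactivators moved least on counts with TMM: YAP1 by -0.12 (SE 0.06) and WWTR1 by -0.10 (SE 0.11). Over the alternatives YAP1 lay between -1.19 and -0.03 and WWTR1 between -1.45 and -0.02. In TPM they were at 53.67 and 57.01 against 26.96 and 31.48 for YAP1 and at 13.7 and 20.2 against 6.24 and 5.84 for WWTR1. With limma on log2(TPM + 1) YAP1 was at -0.90 and WWTR1 at -1.33, so the size of their change depended on the measure and the scaling. TEAD1 was at 10.95 and 10.83 TPM against 5.04 and 4.43 TPM (log2 fold change -0.61, SE 0.08).

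In the wider lists, 13 of 21 pathway genes fell after ARV-771, and 7 of 14 targets fell and 1 rose, where 31.7% of all genes fell and 21.2% rose with TMM. This contrast chose the genes, and nothing is read from these counts. Medians were -0.64 and -0.89 against -0.04 over all genes. FRMD6 went from 41.6 and 39.6 TPM to 7.76 and 7.58 TPM (log2 fold change -1.90), LIMD1, a LIM-domain relative of AJUBA, from 6.04 and 5.30 TPM to 1.05 and 0.89 TPM (-1.94), and the kinase LATS1 from 7.66 and 6.59 TPM to 1.12 and 1.29 TPM (-1.72). NUAK2, a kinase and YAP target, went from 7.40 and 5.86 TPM to 0.17 and 0.34 TPM (log2 fold change -3.96), FJX1 from 7.31 and 7.39 TPM to 0.17 and 0.40 TPM (-3.72), and FOXF2, a forkhead factor, from 5.11 and 6.84 TPM to 0.36 and 0.21 TPM (-3.69). Each of these 3 targets rested on at most 13.45 counts per treated library. The riser was MYOF, a membrane repair protein, at 116 and 115 TPM against 121 and 123 TPM (log2 fold change 0.83), and it was not called with library size only (0.37) or limma.

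The lines themselves were compared through their controls, 2 SKMES1 libraries against 6 of KYSE140. Line and CRISPR system cannot be told apart, and each line is a single source. Of the 10 genes, 6 were called higher in SKMES1 and 3 lower, where 31.4% and 25.8% of 15532 genes were (57.2% in all). In TPM 7 lay above and 3 below every KYSE140 control, where 38.1% of all genes lay above, 27.4% below and 65.5% either way. WWTR1 and YAP1, the paired coactivators, differed in opposite directions. WWTR1 was at 57.2 and 77.6 TPM in SKMES1 and 11.8 to 21.2 TPM in KYSE140 (log2 fold change 2.30, SE 0.10, edgeR quasi-likelihood adjusted p 2.2e-08). YAP1 was at 29.3 and 36.3 TPM in SKMES1 and 53.7 to 112 TPM in KYSE140 (-1.43, SE 0.08, edgeR quasi-likelihood adjusted p 8.0e-08). In SKMES1 the message of WWTR1 thus exceeded that of YAP1 in TPM, and in every KYSE140 library it did not.

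AXL was higher in SKMES1 by 7.50 on the log2 scale (SE 0.11) and ANKRD1 by 6.78 (SE 0.41). The ANKRD1 value rested on 2 to 21 counts in the KYSE140 controls, the lowest in DMSO, and lay between 5.36 and 7.36 over the alternatives. CTGF (1.9602, SE 0.15), AMOTL2 (1.21, SE 0.06) and CYR61 (0.95, SE 0.11) were higher as well. The edgeR quasi-likelihood adjusted p of these 5 genes lay between 3.4e-11 and 2.6e-05, and for each no SKMES1 library overlapped KYSE140 in TPM. AJUBA (-1.14, SE 0.07) and LATS2 (-0.70, SE 0.11) were lower, with edgeR quasi-likelihood adjusted p of 2.6e-07 and 2.5e-04. LATS2 was under the minimum fold with limma on log2(TPM + 1), at -0.57. TEAD1, at 23.1 and 27.8 TPM against 10.8 to 19.8 TPM, was under the minimum fold (0.49, SE 0.09) and was called with limma. Mesenchymal markers summed to 1784 and 2398 TPM in SKMES1 controls and 173 to 349 TPM in these KYSE140 controls. The sums in SKMES1 were mostly VIM, at 1639 and 2268 TPM. ZEB1, at 8.28 and 13.0 TPM against at most 0.29 TPM, and FN1, at 65.9 to 67.6 TPM against at most 0.5 TPM, were higher too. CDH2 overlapped, at 49.5 to 70.5 TPM against 54.3 to 80.9 TPM, and SPARC did not exceed 0.2 TPM in either line. The part of these markers in the difference between lines was not tested.

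Of the other genes, 16 of 22 pathway genes differed between lines, 9 higher and 7 lower in SKMES1, and 13 of 16 targets, 11 higher and 2 lower. Over all genes 57.2% differed, 31.4% higher and 25.8% lower. Median log2 fold changes were 0.12 and 1.73 against 0.05 over all genes. NT5E (the surface enzyme CD73) stood at 87.0 and 205 TPM in SKMES1, IGFBP3 (a binding protein of insulin-like growth factors) at 51.0 and 45.3 TPM and VGLL3 (a TEAD cofactor) at 2.34 and 2.96 TPM, and in the KYSE140 controls no library held more than 2 counts of any of them. No fold is given for these genes. CCDC80 was at 16.96 and 12.66 TPM in SKMES1 against 0.45 to 2.18 TPM (log2 fold change 4.26). The kinases TAOK3 and STK4 were higher in SKMES1 (1.68 and 1.15), while AMOT (-3.02), AMOTL1 (-1.87), SAV1, the scaffold of the MST kinases (-1.66), and FOXF2 (-1.14) were lower.

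Across the 8 groups the order of levels differed from gene to gene. AXL ran from SKMES1 controls (276 TPM) through e1 activation (134 TPM), e1 repression (33.9 TPM) and SOX2 knockout (15.02 TPM) to the KYSE140 controls and ARV-771, and neighbours from the top down to the knockout did not overlap, whereas the Cas9, CRISPRi and DMSO controls did. ANKRD1 had the same leading lines, but its SKMES1 groups overlapped. WWTR1 was ordered alike, with SKMES1 groups on top and overlapping, then e1 repression and knockout apart from each other. CYR61 was highest under e1 repression and knockout, at means of 182 and 181 TPM that overlapped. AMOTL2 and LATS2 were highest in the knockout, where LATS2, at 13.7 TPM, was apart from the next group, and AMOTL2 was not apart from e1 activation. YAP1 was highest in knockout, e1 repression and Cas9 control cells, with means of 111, 103 and 102 TPM that overlapped. TEAD1 varied least among the CRISPR groups, between group means of 16.02 and 25.4 TPM. For AJUBA, neighbours in the order overlapped from DMSO (116 TPM) through e1 repression, knockout and Cas9 controls to CRISPRi controls (91.2 TPM), although DMSO and e1 repression lay wholly above both control groups. For each of the 10 genes ARV-771 was the lowest group in mean TPM, and only for YAP1 did it overlap the next, the SKMES1 controls. Against DMSO alone, 73.2% of all genes tested were lower in TPM, and nothing is read from the count. ANKRD1 had 1 count in each ARV-771 library, too few to read a level, and the direction of AXL against DMSO depended on the scaling.

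The genes whose pattern over the 8 group means came closest were found among 13659 genes by the root mean square difference of centred log2(TPM + 1). For AJUBA they were GEMIN7 (0.15), MYNN (0.17) and PPAN (0.20), against a spread of AJUBA itself of 1.02. For CYR61 they were TTPAL (0.18), CDC42EP1 (0.19) and FHL2 (0.20), and for YAP1 they were THRB (0.06), BCL2L2 (0.12) and SLC38A1 (0.13). Closeness was much poorer for CTGF, whose nearest genes were PLAT (0.69), AGPAT9 (0.76) and UBD (0.82), with a spread of its own of 2.03. The 8 groups share lines and controls, and these distances are a description only.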

How the data were processed

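Poly-A RNA was sequenced from 13 KYSE140 and 4 SKMES1 libraries, grouped by their labels. Reads had been aligned by the authors to hg19 (Bowtie2), and RSEM gave the gene estimates (versions are not given in the sources used here). The deposited expected count is RSEM's estimate of reads per gene, not normalized between libraries. The deposited TPM is scaled within a library and divided by an effective length estimated per library. The deposited FPKM was not used. The members and lists were chosen with earlier results of these data known. In addition to the 10 genes and SOX2, the text names, from each wider list, comparison and direction, up to 3 called genes of largest change whose groups did not overlap in TPM, and the 3 genes nearest to AJUBA, CYR61, CTGF and YAP1.

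Expected counts were rounded and tested with edgeR 4.0.16 in R 4.3.3 (quasi-likelihood, TMM, filterByExpr with a minimum count of 10 and total of 15), fitting each comparison on its own groups. Calls required an adjusted p (Benjamini-Hochberg) below 0.05 and more than 1.5-fold change. The SE was taken as the absolute log2 fold change over the root of the F statistic. Alternatives were DESeq2 1.42.0, limma 3.58.1 on log2(TPM + 1) or log2(TPM + 0.1) for a mean TPM of at least 1, the exact test, other scalings and filters, and each library left out. Tests of every comparison but ARV-771 were run on simulated data with equal rises and falls, which cannot check the choice of scaling.

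A gene with 3 counts stood at 0.19 to 0.413 CPM. Replicates differed by more than sampling noise (chi-square per degree of freedom 2.16 to 26.6). Expected counts of WWTR1, AMOTL2 and AXL were not whole in 8, 7 and 5 libraries, so a few of their reads were shared with other genes. Gene coordinates are from GENCODE release 44 mapped to GRCh37, by Ensembl identifier, and promoters from RefSeq, where CTGF is CCN2 and CYR61 is CCN1.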

Additional observations from a re-analysis of the deposited data

Results flagged for a closer look

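CTGF is listed because its effects under e1 repression and SOX2 knockout differed in the test of the difference itself. The interaction was 1.91 on the log2 scale (edgeR quasi-likelihood adjusted p 5.7e-05) and lay between 1.74 and 2.13 over the alternatives. CTGF rose in 2 of 2 e1 libraries and fell in 3 of 3 knockout libraries, each against its own controls. AXL is listed by the same test, at 1.49 (edgeR quasi-likelihood adjusted p 2.8e-04), between 1.26 and 1.76 over the alternatives. It rose in 2 of 2 e1 libraries and 3 of 3 knockout libraries. The CRISPR system differed between the arms and cannot be told apart from the perturbation.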

How the results depend on the processing

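Counts of called genes under e1 repression, SOX2 knockout and between the lines stayed within 1.5 times under every alternative run. Counts in e1 activation did not. Its 28 called genes became 1116 without a filter on low counts, 784 with all 17 libraries in one fit, 523 with the edgeR exact test, 400 with DESeq2, and 9 and 8 with the limma fits (pseudocounts 1 and 0.1), and ranged from 1 to 764 when a library was left out. Of the 10 genes, 3 were called without the filter and 2 each with DESeq2, the exact test and the fit of all libraries (0 to 3 with a library left out), and of the wider lists 4, 3, 3 and 3 (0 to 6). Without control 1 or control 2 the calls were 764 and 262, and without e1 guide 3 there was 1. After ARV-771 the wider lists had 32 calls with mitochondrial scaling, and in the interaction 7 and 8 with the limma fits. The cause was not tested. The following directions turned. In the knockout TEAD1 was at 0.032 without the Chr2.2 control and 0.02 without SOX2 guide 2 (-0.13 to 0.032 with a library left out). In e1 activation AMOTL2 was at 0.0085 with library size only, 0.0624 and 0.0631 in the limma fits and 0.13 without guide 3 (-0.18 to 0.13), WWTR1 at 0.12 without control 2 and 0.08 without guide 1 (-0.19 to 0.12), and YAP1 at -0.041 without control 1 (-0.041 to 0.11). After ARV-771 AXL was at -0.28 with library size only, -0.20 and -0.37 in the limma fits, -0.90 with mitochondrial scaling and -0.074 without culture A of ARV-771 (-0.074 to 0.44), and MYOF, called at 0.83 with TMM, at -0.25 with mitochondrial scaling. Called genes that rose were 54.7% of knockout calls with TMM (2275 risen, 1882 fallen) and 36.2% with library size only (1703 risen, 2999 fallen), and of interaction calls 49.5% and 67.6%. With guide numbers as a replicate block, e1 repression called 2807 genes, 6 of the 10 and 12 of the wider lists, and ARV-771 with culture letters as a block 7090 genes and 21 of the wider lists. Same-numbered libraries did not deviate together (correlation 0.02 over 11145 genes and -0.03 over 10855), so they share only a number. The knockout and e1 activation share fewer than 2 numbers. No blocked fit was run for the comparison of lines, whose control guides share numbers 1 and 2, or for the interaction. Genes under about 3 counts, ANKRD1 after ARV-771 among them, could not be measured at this depth.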

Other observations

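In the interaction contrast, 6 of 22 pathway genes and 8 of 14 targets differed between e1 repression and SOX2 knockout. Of the pathway genes 2 were higher and 4 lower in e1 repression, and of the targets 6 were higher and 2 lower, against 8.21% higher and 8.37% lower over all genes tested. Median differences were 0.05 for the pathway genes and 0.47 for the targets, against 0.03 over all genes.

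The second SKMES1 control library stood apart from the other SKMES1 libraries in a squamous marker chosen here after its values were seen. KRT14 was at 118 TPM there, against 0 to 0.31 TPM in the other 3, while KRT5, which usually pairs with it, was at 0.05 TPM. Without that library CTGF in e1 activation was at 2.62 and AXL at -0.94, in a fit left with a single control library. Over all fits with a library left out CTGF lay between 2.62 and 3.36 and AXL between -1.29 and -0.93. The part of this library in the e1 activation values was not tested.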
